A study of Mus musculus with 2 samples.

Results

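Of 33 interferon-stimulated genes examined in DX5- and DX5+ liver NK cells, 31 had a probe set of their own and 28 were detected. The DX5- array gave 2 of these 28 at least 2-fold higher, Igtp and Irgm2, which encode interferon-inducible GTPases. It gave 2 at least 2-fold lower: Gbp3, another such GTPase, and Usp18, the protease that removes ISG15 from proteins. The other 24 lay within 2-fold. Of all 9972 genes detected in the series, 3.57% passed 2-fold in the higher direction and 5.52% in the lower.

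The members were taken by name from a list of well-known interferon-stimulated genes, but earlier results of these data were known when they were chosen. They are 33 genes, out of 18194 genes that the array reads singly. Where several probe sets read a gene, the brightest on average (mean of log2 intensities) was used. The list holds 6 GTPases that respond more strongly to interferon gamma (Gbp2, Gbp3, Igtp, Iigp1, Irgm1 and Irgm2) and 27 other genes, called type I-type effectors here.

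NK cells are innate lymphocytes that kill infected or transformed cells. Both populations came from livers of naive wild-type B6 mice and were sorted as NK1.1+ CD3- cells. One was DX5-NK1.1+CD3- and the other DX5+NK1.1+CD3-, DX5 being an antibody to the integrin alpha 2 chain encoded by Itga2. The labels name no treatment; sex, age, number of mice and any pooling are not stated in the sources used here. Each population was hybridised to 1 Affymetrix array as biotin-labelled cRNA. No gene therefore has a spread between samples, no difference could be tested, and every fold describes these arrays.

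Type I interferons signal through the IFNAR receptor and the kinases JAK1 and TYK2 to a complex that includes STAT2 and IRF9 and binds DNA at interferon-stimulated response elements (ISRE). Interferon gamma, which NK cells themselves secrete, signals through IFNGR, JAK1 and JAK2 and acts at gamma-activated sites (GAS) in DNA. The genes switched on by these routes overlap widely. They encode sensors of foreign RNA, proteins that block viral replication, and GTPases that attack membranes around intracellular microbes.

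The arrays held 45101 probe sets with a median MAS5 intensity of 70.3 for DX5- and 78.0 for DX5+ cells. Below 90.9 intensity units in DX5- and 107 in DX5+ cells a gene was taken as not detected. These limits are the 95th percentiles of 148 probe sets of families with little expected use in lymphocytes, such as olfactory receptors. Of 12 NK cell markers 11 had a probe set of their own, Klrb1c, the NK1.1 gene, being the exception. All 11 were detected on both arrays. Past 2-fold 2 of the 11 were lower in DX5- cells, beside 5.52% of all detected genes, and 0 were higher, beside 3.57%. These were Eomes (1991 in DX5- and 16107 in DX5+ cells) and Prf1 (3108 and 8978). Itga2 read 29.0 in DX5- and 105 in DX5+ cells, below both limits. Markers of DX5- liver NK cells and ILC1, such as the integrin gene Itga1 (999 against 44.5) and the chemokine receptor gene Cxcr6 (7425 against 772), were higher in DX5- cells. Between probe sets of the same gene the log2 ratio had an SD of 0.32 over 4092 genes, which covers probe noise only.

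**Figure D1:**
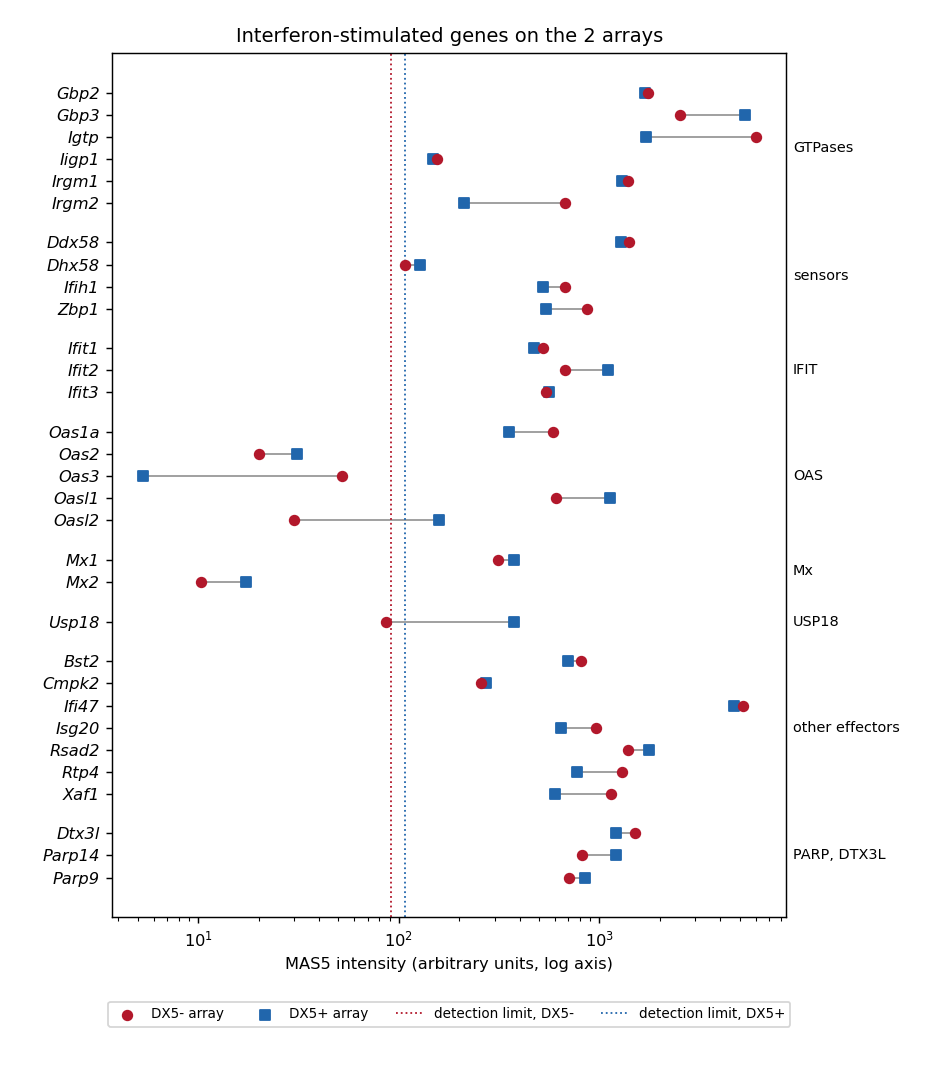
MAS5 intensity (log axis) of the 31 members with a probe set of their own, 1 row per gene, grouped by role; red circles are the DX5- array, blue squares the DX5+ array and dotted lines the detection limits of 90.9 and 107. Igtp and Irgm2 have the red circle far to the right and Gbp3 far to the left, Usp18 crosses the limits, and Oas2, Oas3 and Mx2 lie below both; distances between genes are not comparable, since probe sets differ in brightness.

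The interferon gamma-responsive GTPases were the more widely spread group. All 6 were detected on both arrays, and 2 were past 2-fold higher in DX5- cells, 1 past 2-fold lower and 3 within 2-fold, beside 3.57% higher and 5.52% lower among all detected genes. Their median log2 ratio was 0.08, beside -0.0042 over all detected genes, and their SD was 1.11, beside 0.63. The middle of this group thus hides members far apart.

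Igtp, also called Irgm3, encodes an immunity-related GTPase (IRG) of the endoplasmic reticulum and lipid droplets that regulates other GTPases of its family. It read 6004 in DX5- and 1699 in DX5+ cells, a 3.53-fold difference or 1.82 on the log2 scale. Irgm2, a related regulator found at the Golgi apparatus, read 674 in DX5- and 210.5 in DX5+ cells, 3.20-fold higher. Irgm1, the remaining member of this regulatory branch, was nearly level at 1382 and 1298. Each of these genes had a single probe set, and cross-hybridisation between the related transcripts was not tested.

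Iigp1, an effector GTPase of the same family that coats parasite vacuoles, read 155 in DX5- and 148 in DX5+ cells, close above both limits. A second probe set of Iigp1 was below them. Ifi47, which encodes a further IRG protein but was counted among the type I-type effectors, read 5190 and 4660, or 1.11-fold higher on the DX5- array. Among the members of the IRG family, values past 2-fold higher in DX5- cells were thus seen at Igtp and Irgm2. They were not seen at Irgm1, Iigp1 or Ifi47. Tgtp1 and Tgtp2, IRG genes outside the members, are given below with the promoters.

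Guanylate-binding proteins are larger interferon-inducible GTPases that assemble on pathogen membranes. Gbp3 read 2522 in DX5- and 5329 in DX5+ cells, 2.11-fold lower in DX5- cells. Gbp2 was nearly level: it read 1749 and 1693, and its other probe set 1414 and 1653, so its probe sets did not share a sign. Gbp3 was at 1.82-fold, short of 2-fold, when the arrays were scaled to the hybridisation spike-ins, whose 18 probe sets were all lower on the DX5- array (median log2 ratio -0.22). Igtp and Irgm2 were past 2-fold in all 10 settings tried, at 3.46 to 4.11-fold and 3.20 to 3.73-fold. Each has a single probe set that read above every limit used. Changes of limit or probe set choice therefore could not move their ratios, and only changes of scaling could.

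The genes of Igtp and Irgm2 are neighbours on chromosome 11, with 0 protein-coding genes between them and their starts 15421 bases apart in GRCm38.p6. Irgm1 and Ifi47 lie elsewhere on that chromosome, and Gbp2 and Gbp3 on chromosome 3. The sequences just before their starts are shown because the pair that was higher in DX5- cells also shares its promoter letters. Each line gives the 110 bases before the RefSeq start of GRCm38.p6, read 5′ to 3′ on the gene's strand. Capitals mark matches to an ISRE core, which is GAAA, any 2 bases and GAAA again, or the same on the other strand (TTTC, any 2 bases, TTTC). They also mark a GAS core, TTCNNNGAA, which reads alike on both strands.
Igtp: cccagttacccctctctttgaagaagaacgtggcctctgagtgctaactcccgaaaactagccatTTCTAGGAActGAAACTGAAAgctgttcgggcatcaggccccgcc
Irgm2: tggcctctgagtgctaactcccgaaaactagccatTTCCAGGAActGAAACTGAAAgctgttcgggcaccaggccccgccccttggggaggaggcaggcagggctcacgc
Irgm1: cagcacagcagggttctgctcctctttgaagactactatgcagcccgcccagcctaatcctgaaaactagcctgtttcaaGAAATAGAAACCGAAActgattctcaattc
Gbp2: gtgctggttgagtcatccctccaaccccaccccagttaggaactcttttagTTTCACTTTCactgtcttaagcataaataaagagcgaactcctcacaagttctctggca
Gbp3: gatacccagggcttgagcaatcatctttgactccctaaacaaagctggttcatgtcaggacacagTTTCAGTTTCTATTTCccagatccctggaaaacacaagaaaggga
These windows are chr11:58199446-58199555 on the plus strand for Igtp, chr11:58214867-58214976 on the plus strand for Irgm2 and chr11:48871421-48871530 on the minus strand for Irgm1. Those of Gbp2 and Gbp3 are chr3:142620553-142620662 and chr3:142559934-142560043, both on the plus strand.

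In Igtp and Irgm2 a GAS match was followed after 2 bases by an ISRE match. The GAS match began 45 bases before the start in Igtp and 75 bases before it in Irgm2. Over the 21 bases of this stretch 20 were identical, and over 80 bases around it, with Irgm2 shifted by 30 bases, 78 were. Of 32851 RefSeq promoter windows, from 250 bases before to 50 after a start, 3.44% held an ISRE match, 8.30% a GAS match and 5 windows this arrangement on the gene's strand. Those 5 belong to Igtp, Irgm2, Tgtp1, Tgtp2 and Gm12185, all on chromosome 11. The last 3 were looked at after the values of the others had been seen. The arrangement searched for was the one seen in Igtp and Irgm2, whose letters are nearly identical there. The count of 5 therefore says only how often their own arrangement recurs, and a link with the values was not tested. Tgtp1 and Tgtp2 are IRG genes like Igtp and Irgm2. A probe set listed for Tgtp1 and Tgtp2 together read 2698 in DX5- and 1598 in DX5+ cells, 1.69-fold higher. That of Gm12185 read 111 against 59.8, at least 1.04-fold higher. Letter matches are a description of these windows and do not show that a factor binds them.

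**Figure D2:**
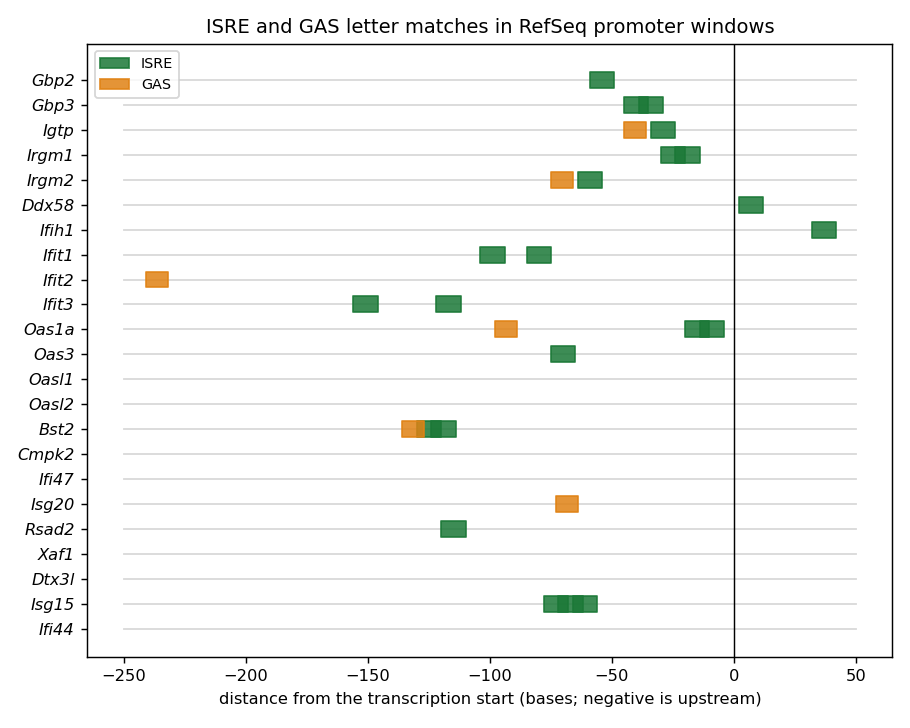
Matches to the ISRE core (green) and the GAS core (orange) in the RefSeq promoter windows of the 23 members found in the promoter table (the first listed start of each gene), by distance in bases from the transcription start (vertical line). Igtp and Irgm2 show an orange block with a green block just to its right; Gbp2, Gbp3 and Irgm1 show green blocks only.

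Across the list 23 of 33 members were found in the promoter table (not Dhx58, Zbp1, Oas2, Mx1, Mx2, Usp18, Rtp4, Parp9, Parp14 and Iigp1), and 14 of them had an ISRE match and 6 a GAS match. All 5 GTPases found there had an ISRE match, whichever side of the arrays' balance they were on. A second listed start of Gbp3 had no match. Of the 18 type I-type effectors found there 9 had an ISRE match. A GAS match was found for 2 of the 5 GTPases and for 4 of the 18 effectors. The matches of 2 type I-type effectors are shown for comparison with those of the GTPases, as the same 110 bases before the start.
Ifit1: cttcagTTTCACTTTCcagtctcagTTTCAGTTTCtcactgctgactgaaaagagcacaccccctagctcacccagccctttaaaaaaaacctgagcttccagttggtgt
Oas1a: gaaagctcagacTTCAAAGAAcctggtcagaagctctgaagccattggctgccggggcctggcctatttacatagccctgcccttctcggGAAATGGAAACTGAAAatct
Ifit1 (chr19:34640779-34640888, plus strand) had 2 separate ISRE matches, and Oas1a (chr5:120907526-120907635, minus strand) had 2 overlapping ones with a GAS match far upstream of them. No match in such a window says only that these letters are not there.

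The type I-type effectors lay closer together than the GTPases, with an SD of 0.68 in the log2 ratio, beside 0.63 over all detected genes. Usp18 and Oasl2 entered it as bounds. The SD was 0.53 without Usp18, the most extreme value, while no value was left out of the GTPases. Of 27 genes 25 had a probe set of their own and 22 were detected, 20 of them on both arrays and 2, Usp18 and Oasl2, on the DX5+ array only. Past 2-fold 0 of the 22 were higher and 1, Usp18, was lower in DX5- cells, with 21 in between. The median log2 ratio was 0.044 and the mean -0.059, which differ in sign. The medians of the GTPases and of these effectors were 0.036 apart; whether the groups differ could not be tested. At 1.5-fold 4 were higher and 4 lower, beside 10.4% and 13.8% of all detected genes.

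**Figure D3:**
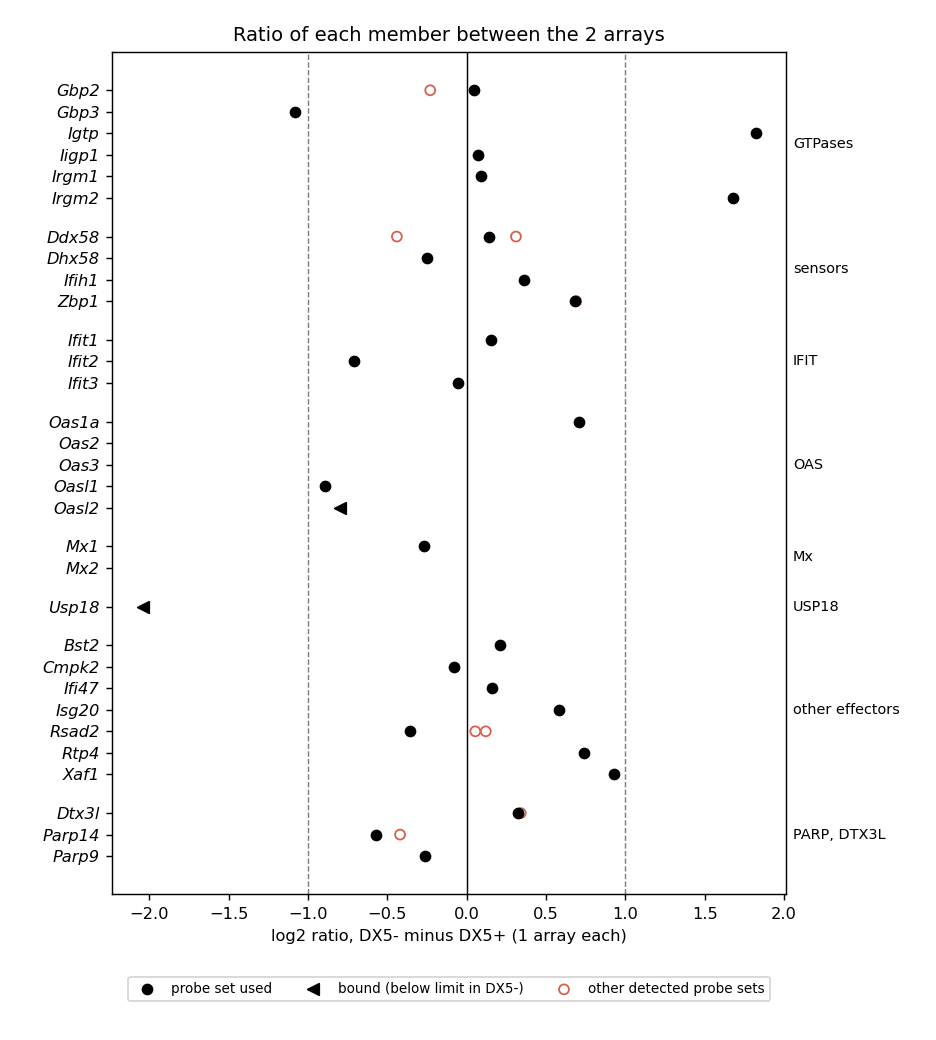
Log2 ratio of each member, DX5- minus DX5+, with 1 array for each population; filled circles are the probe set used, triangles are bounds for genes below the limit on the DX5- array, open red circles are other detected probe sets of the same gene, and dashed lines mark 2-fold. Igtp (1.82) and Irgm2 (1.68) lie to the right of 1, Gbp3 (-1.08) and Usp18 (at most -2.04) to the left of -1, and Oas2, Oas3 and Mx2 have no ratio.

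Of the 4 RNA sensors 3 read higher and 1 lower in DX5- cells, with 0 past 2-fold and 1 past 1.5-fold. Zbp1, a sensor of Z-form nucleic acid that triggers cell death, read 871 in DX5- and 543 in DX5+ cells, 1.60-fold higher; its other detected probe set gave 1.62-fold. Ifih1 (MDA5, a sensor of long double-stranded RNA) read 672 and 524 or 1.28-fold higher. Ddx58 (RIG-I, a sensor of RNA ends) read 1410 and 1280, but its 3 detected probe sets ran from -0.44 to 0.31 on the log2 ratio scale. Dhx58 (LGP2, a regulator of both helicases) read 107 and 127, hardly above the limits.

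IFIT proteins bind viral RNA lacking host cap marks. Ifit1 read 524 in DX5- and 472 in DX5+ cells, and Ifit3 read 542 and 563. Ifit2, whose product can also promote apoptosis, read 677 against 1105, 1.63-fold lower in DX5- cells. Ifit2 was the 1 of 3 past 1.5-fold.

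The OAS family includes enzymes that make a messenger that activates RNase L. Oas1a read 584 in DX5- and 356 in DX5+ cells, 1.64-fold higher. Oasl1, which restrains translation of the factor IRF7, went the other way with 609.6 against 1131, 1.85-fold lower. Oasl2 read 29.9, below the limit, and 159, which makes it at least 1.75-fold lower. Oas2 and Oas3 were below the limits on both arrays, with readings from 5.30 to 52.0. Oas1a thus stood on the side opposite to Oasl1 and Oasl2, with Oasl2 known only as a bound.

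Mx proteins are dynamin-like GTPases that trap viral nucleocapsids. Mx1 read 313 in DX5- and 377 in DX5+ cells, and Mx2 read 10.3 and 17.3, below both limits.

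Among the remaining antiviral effectors most ratios were positive. Xaf1, a promoter of apoptosis, read 1143 in DX5- and 601 in DX5+ cells, 1.90-fold higher, and from 1.49-fold (mean over probe sets) to 2.20-fold (spike-in scaling) over the 10 settings. Rtp4, a receptor transporter protein that binds viral RNA, read 1300 and 777, 1.67-fold higher. Isg20, an RNA exonuclease, read 966 and 645, a log2 ratio of 0.58. Bst2 (tetherin, which holds budding virions at the cell surface) read 805 and 694.

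Rsad2 and Cmpk2 are adjacent genes whose products together make an antiviral nucleotide. Rsad2 (viperin) read 1380 in DX5- and 1769 in DX5+ cells, and its other probe sets gave log2 ratios of 0.054 and 0.12, so its 3 probe sets did not share a sign. Cmpk2 read 256 and 271.

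Parp9, Parp14 and Dtx3l encode ADP-ribosyl transferases and a ubiquitin ligase partner of PARP9. Parp9 read 705 in DX5- and 847 in DX5+ cells, and its partner Dtx3l 1504 and 1207. Parp14 read 818 and 1211, 1.48-fold lower, with 1.34-fold in its second probe set. Neither partner of the PARP9 complex was past 1.5-fold, and they lay on opposite sides.

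Usp18 was the member with the lowest ratio. Its protein strips the ubiquitin-like modifier ISG15 from other proteins and also dampens signalling at IFNAR2. It read 86.6 on the DX5- array, just below the limit of 90.9, and 373 on the DX5+ array, so it was at least 4.10-fold lower in DX5- cells. With the limit at the 99th percentile of the same families (341 on the DX5- array) the bound shrank to 1.09-fold, because that limit lies close under the DX5+ reading; in the other 9 of 10 settings it was past 2-fold lower.

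The genes that attach ISG15 were read from lists beside the members. Uba7, the enzyme that activates ISG15, read 1082 in DX5- and 449 in DX5+ cells, 2.41-fold higher; its other probe sets gave 2.98-fold and 1.06-fold. Herc6, the main ISG15 ligase of the mouse, read 309.7 and 126, 2.45-fold higher. None of its other 3 probe sets was past 2-fold; the brightest of them read 197 and 106, the latter just below the limit. Ube2l6, which carries ISG15 between them, was level at 106 and 109. Trim25, a ubiquitin ligase that can also attach ISG15, was 3.14-fold lower (1213 against 3806), with 3.21-fold and 1.58-fold in its other probe sets. Uba7 and Herc6 thus lay on the side opposite to Trim25 and Usp18. Isg15 itself has a probe set only together with another gene, and Ifi44 has none listed, so neither has a value.

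Markers of several other cell types, but not of all, were lower on the DX5- array. Among all detected genes 5.52% were at least 2-fold lower. All 8 markers of plasmacytoid dendritic cells, which make type I interferon, were detected and 4 were at least 2-fold lower in DX5- cells; the summed intensity of the 8 was 3329 against 9062. Of them Siglech, a defining surface lectin, was 3.39-fold lower, and Ccr9, a homing receptor, read 1349 and 4731. Pacsin1 was the 1 of the 8 that read higher, with 169 and 113. Of 15 macrophage and Kupffer cell markers with a probe set 6 were detected and 5 were at least 2-fold lower, with summed intensities of 1627 and 6205. The Kupffer cell genes Clec4f, Timd4, Marco and Vsig4 and the complement genes C1qa, C1qb and C1qc were below the limit on both arrays. Platelet markers (7 of 8 past 2-fold lower, sums 1222 and 6052) and neutrophil markers (3 of 5 detected, sums 3801 and 9605) were lower as well. T cell markers went the other way although the sort was CD3-: 3 of 6 detected, Cd3d, Cd3e and Cd3g, were past 2-fold higher, with sums of 25084 and 10681. Cd28 was the 1 of these 6 that read lower (7668 and 8442), and Cd4 and Cd8b1 were below the limits. All 4 detected B cell markers read higher, with 0 past 2-fold and a median log2 ratio of 0.25. Past 2-fold lower were 1 of 4 detected endothelial and 1 of 5 detected hepatocyte markers, and 0 were past 2-fold higher. In such bulk samples fewer cells of a type and less RNA per cell cannot be told apart, and the part of these cells in the values of Usp18, Oasl2, Gbp3, Igtp or Irgm2 was not tested.

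**Figure D4:**
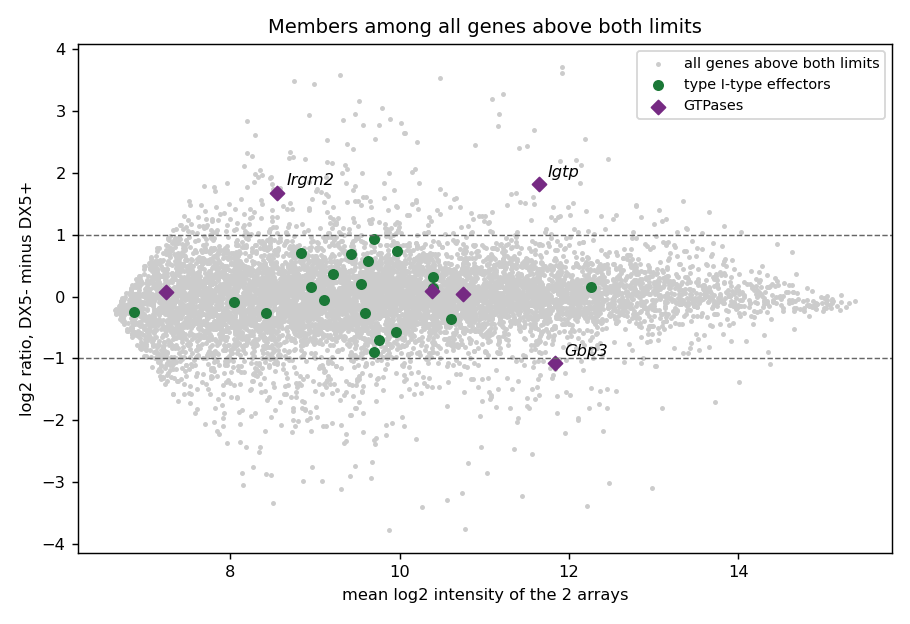
Log2 ratio, DX5- minus DX5+, against the mean log2 intensity of both arrays for the genes above both limits; grey points are all such genes, green circles the type I-type effectors and purple diamonds the GTPases, and dashed lines mark 2-fold. Igtp, Irgm2 and Gbp3 lie outside the dashed lines while the 20 type I-type effectors detected on both arrays lie between them; Usp18 and Oasl2 were below the DX5- limit and are not drawn.

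Over all 28 detected the members had a median log2 ratio of 0.08 and a mean of 0.047. Past 1.5-fold were 6 higher and 5 lower, or 39.3% of the 28, beside 24.2% of all detected genes; past 2-fold were 14.3%, beside 9.09%. With spike-in scaling the median of the members was 0.30 and that of all detected genes 0.19. Members past either fold thus lay on both sides.

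The signalling parts of the pathway were then read from lists of ligands, receptors, transducers and inhibitors. Of 20 interferon genes 9 had a probe set of their own and 11 had none, so those 11 were not read. The 1 detected was Ifng, with 14891 in DX5- and 11958 in DX5+ cells, 1.25-fold higher. Ifnb1 and the 7 interferon alpha genes with a probe set, Ifnab among them, read at most 61.7. Among the type I interferon genes that could be read, neither array thus gave a transcript above its limit.

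Of the 4 detected receptor genes 1 read higher and 3 lower in DX5- cells. Il10rb, a chain shared by the receptors of IL-10 and the lambda interferons, was the 1 past 1.5-fold, with 1327 against 2175 (1.64-fold lower). Ifnar1 read 1426 in DX5- and 1863 in DX5+ cells, and a second probe set was 2.02-fold lower. Ifnar2 read 2938 and 2446, with its 3 probe sets split in sign. Ifngr1 read 14916 and 18620, while Ifngr2, the signalling chain of the gamma receptor, read 62.4 and 83.6, below the limits. None of the probe sets used for the 4 detected genes was past 2-fold (0 of 4, beside 9.09% of all detected genes). The median log2 ratio was -0.35.

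Of 5 detected JAK-STAT transducers 0 were past 2-fold, beside 9.09% of all detected genes, and the median was -0.27. Stat2 read 133 in DX5- and 127 in DX5+ cells, and Irf9 1102 and 1380. Among 7 other interferon regulatory factors Irf8 was the 1 past 2-fold: it read 10206 and 26592, 2.61-fold lower, and 3.30-fold lower in a second probe set. Irf8 is known both in NK cells and as a defining factor of plasmacytoid dendritic cells, whose markers are given above. Irf7, the amplifier of type I interferon, read 725 and 1163, 1.60-fold lower, and Irf1, a factor induced by interferon gamma, 7302 and 6746.

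Of 8 feedback inhibitors 1 was past 2-fold, or 12.5% beside 9.09% of all detected genes. Socs1, which blocks JAK kinases downstream of interferon gamma, read 557 in DX5- and 198 in DX5+ cells, 2.81-fold higher. Socs3, its relative, was level at 11187 and 10888. In the list of sensor signalling Mavs, the mitochondrial adaptor of RIG-I and MDA5, was 2.21-fold higher (296 against 134, and 1.52-fold in its other probe set). Trim25, an activator of RIG-I, was lower as above. These were the 2 of 7 detected genes past 2-fold, 1 each way, beside 9.09% of all detected genes.

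Guanylate-binding proteins outside the members lay on both sides. Gbp6 read 979 in DX5- and 360.0 in DX5+ cells, 2.72-fold higher, and 1.89-fold in its other probe set. Gbp8 read 3742 and 1866, 2.01-fold higher. Gbp7 went the other way with 1814 and 2938, 1.62-fold lower, and 1.61-fold in its second probe set. Gbp6 and Gbp8 lie on chromosome 5 and Gbp7 on chromosome 3 with Gbp2 and Gbp3. Of the 14 genes on this list 9 had no probe set of their own and 3 were detected. Of these 3, 2 were past 2-fold, both higher, beside 3.57% higher among all detected genes. Gbp8 was at the edge: its log2 ratio was 0.99 with quantile normalization, short of 2-fold. Guanylate-binding protein transcripts resemble each other, so probe sets may share signal, which was not tested.

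**Figure D5:**
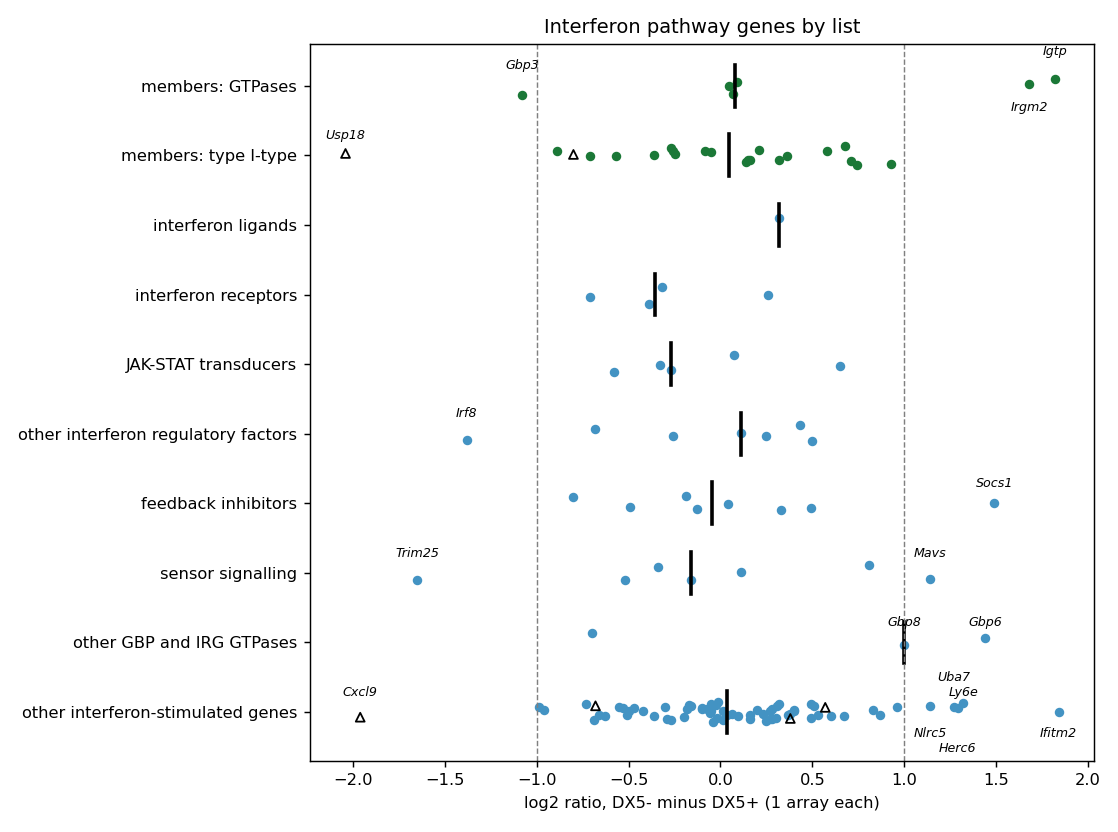
Log2 ratio, DX5- minus DX5+, of each detected gene by list; green points are members, blue points other pathway genes, open triangles bounds for genes below the limit on 1 array, thick bars list medians and dashed lines 2-fold. Medians lie between -0.35 and 0.32 except for the 3 detected genes of the other GBP and IRG list, of which Gbp8 is the middle one, and the genes past 2-fold are named.

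A broader list of 94 other interferon-stimulated genes had 69 detected. Past 2-fold 5 of these 69 were higher, beside 3.57% of all detected genes, and 1 was lower, beside 5.52%. Both directions together made 8.70%, beside 9.09% of all detected genes, so the pooled count is near the background. Their median ratio was 0.034 on the log2 scale. Ifitm2, a membrane protein that blocks virus entry, was 3.59-fold higher (1251 against 349), while its relatives Ifitm1 (606 and 615) and Ifitm3 (479 and 576) were nearly level. Ly6e, a surface protein that restricts coronaviruses, read 9478 and 3794, 2.50-fold higher, and 1.46-fold in its other probe set. Nlrc5, the activator of MHC class I genes, read 2659 and 1205, 2.21-fold higher; Uba7 and Herc6 are given above. Cxcl9, a chemokine induced by interferon gamma and made mainly by myeloid cells, read 80.4, below the limit, and 354, at least 3.89-fold lower. The macrophage markers given above were lower too, while 0 of 6 detected dendritic cell markers were past 2-fold (sums 14620 and 16294); their part in the value of Cxcl9 was not tested.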

How the data were processed

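Total RNA of each sorted population was labelled and hybridised to 1 array. The deposited values are linear intensities made by the authors with MAS5, per the submitters' processing notes; its version was not stated in the sources used here. After trimming 2% at each end the mean was 499.8 on both arrays. Of 45101 probe sets, 34958 were listed for 1 gene symbol in the platform annotation and 932 for several; symbols were checked by gene identifier against RefSeq (GRCm38.p6; 34754 matched). Intensities were taken to log2 with no offset. A gene below the limit on 1 array was set to that array's limit, which gives a bound ("at least"). With 1 array per group no test was possible; calls are folds of 2 or more. Detection limit, probe set choice and scaling were varied, and the steps were tested on simulated data. Promoter sequences are RefSeq's, GRCm38.p6. Python 3.11.15, numpy 2.4.6 and pandas 2.3.3 were used. The members and lists were chosen with earlier results of these data known. Values are printed for every detected member, and from the other lists for genes past 2-fold and the main ligand, receptor and transducer genes; further genes were chosen after their values were seen.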

Additional observations from a re-analysis of the deposited data

Results flagged for a closer look

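The only probe set that lists Isg15 in the platform annotation lists Gm9706 as well, so it gives no value for either gene and entered no count or median. It read 3809 in DX5- and 1097 in DX5+ cells, a 3.47-fold difference. It is mentioned because it lies outside the comparison and well above both detection limits.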

How the results depend on the processing

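No paired analysis was possible because each population has 1 array, and for the same reason leaving out a replicate was not an option. Alternatives for the pathway lists were added after seeing the data. Over 10 settings, the reported one included, Igtp and Irgm2 stayed at least 2-fold higher in all 10, though only the changes of scaling could move their ratios. The count of members at least 2-fold lower was 1 under a 99th percentile limit, without Usp18, and 1 with spike-in scaling, without Gbp3; it was at most 3, where Oasl2 joined. The median of the members was 0.0033 with the mean over probe sets and 0.30 with spike-in scaling. That of the GTPases was 0.30 with spike-in scaling. That of the type I-type effectors was 0.15 under a 99th percentile limit, -0.052 with no limit, 0.26 with spike-in scaling and -0.052 with Ifi47 among the GTPases. Spike-in scaling gave medians of -0.14 for receptors, -0.057 for JAK-STAT transducers, 0.33 for regulatory factors, 0.17 for feedback inhibitors, 0.053 for sensor signalling, 1.22 for other GBP and IRG genes and 0.25 for other interferon-stimulated genes. The JAK-STAT median was -0.12 with the mean over probe sets, that of other GBP and IRG genes 0.17 with no limit, and that of feedback inhibitors -0.16 without _x_at and _s_at probe sets. The median of other interferon-stimulated genes was 0.08 without those probe sets and 0.11 with quantile normalization. Members with small ratios turned sign: Ifit3 and Cmpk2 reached 0.16 and 0.14, and Gbp2 was -0.089 with the mean over probe sets. Spike-in scaling shifts every ratio by construction, and the causes of the other shifts were not tested. Over all genes, 63.1% of those past 2-fold were higher with spike-in scaling, 52.5% under a 99th percentile limit and 39.3% as reported. A limit set without 3 crystallin-domain genes that are not lens crystallins was added after seeing the data; Usp18 was then past 2-fold lower, as was Oasl2. The number of arrays limits all of these values.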

Other observations

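Interferon-inducible genes of antigen processing were read as a further group, chosen after their values were seen. Psmb10, an immunoproteasome subunit, read 4071 in DX5- and 2561 in DX5+ cells, 1.59-fold higher, and the subunits Psmb8 and Psmb9 were 1.30-fold and 1.20-fold higher. The peptide transporter genes Tap1 (1855 and 1925) and Tap2 (1552 and 1201) were within 1.5-fold. Transcripts of the MHC class I chains themselves were level: H2-K1 read 27013 and 28428, H2-D1 24942 and 25897, and B2m 33856 and 33536. Cd274, the interferon-inducible checkpoint ligand PD-L1, read 4281 and 2400, 1.78-fold higher in DX5- cells.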
